A study of Mus musculus with 12 samples.

Results

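Metazoan replication-dependent histone mRNAs end in a stem-loop in place of a poly(A) tail, and 10 genes whose products transcribe them, cut their 3′ ends or degrade them were followed here: Npat, Casp8ap2, Slbp, Lsm10, Lsm11, Zfp473, Cpsf2, Cpsf3, Sympk and Eri1. The genes were chosen by name for their role, and all 10 were measured among the 19938 genes that could be named on the arrays. They were read by 13 of the 35512 probe sets. Of these, 2 belonged to Slbp, 3 to Sympk and 1 to each of the other genes, and 7 further probe sets that also list other genes beside a member were not used.

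The arrays, from Affymetrix, read the RNA of NIH3T3 cells, an established immortalised mouse fibroblast line grown with 10% serum. Each of 4 groups held 3 arrays, which the series' design calls biological replicates. The Mock group received the transfection reagent with no siRNA, the sirEGFP group a control siRNA named for EGFP, and the remaining groups either sirUBF oligo #1 or sirUBF oligo #2 (oligo 1 and oligo 2 below). The UBF siRNAs are 2 different siRNAs against UBF, the nucleolar RNA polymerase I factor encoded by Ubtf. Each siRNA was given at 40 nM, and all groups were harvested after 48 h. How much UBF protein the cells kept, and how separate the replicate cultures were, is not given in the sources used here, so p-values measure the spread between these arrays.

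In S phase, NPAT and FLASH (the product of Casp8ap2) gather at the histone gene clusters in the histone locus body, where cyclin E and CDK2 phosphorylate NPAT. SLBP binds the stem-loop, and the U7 snRNP, a small nuclear ribonucleoprotein whose ring carries the proteins LSM10 and LSM11, pairs with the sequence downstream. ZFP100 (Zfp473) links the stem-loop complex to U7. Cutting is done by CPSF73 (Cpsf3), a nuclease that works with its partner CPSF100 (Cpsf2) on the scaffold symplekin (Sympk), and these 3 proteins also serve the cleavage of polyadenylated mRNAs. ERI1 is an exonuclease that binds the same stem-loop and trims it as histone mRNA is degraded.

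Promoter sequence is shown for Slbp and Casp8ap2, members called in at least 1 comparison whose window in RefSeq's promoter table lies wholly before the gene. The 250 bases before the start that this table uses are given 5′ to 3′ on the gene's strand, assembly GRCm38.p6. Capitals mark CCAAT, or ATTGG on the other strand, the element bound by NF-Y, and TTTNNCGC, or GCGNNAAA on the other strand, a short form of the E2F element, and no base lay in both. The windows are chr5:33652575-33652824 on the minus strand for Slbp and chr4:32615220-32615469 on the plus strand for Casp8ap2.
Slbp: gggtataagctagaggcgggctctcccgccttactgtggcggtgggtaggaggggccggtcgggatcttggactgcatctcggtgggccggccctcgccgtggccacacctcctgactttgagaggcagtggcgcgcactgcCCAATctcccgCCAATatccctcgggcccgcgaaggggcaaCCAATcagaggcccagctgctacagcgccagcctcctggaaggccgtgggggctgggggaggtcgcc
Casp8ap2: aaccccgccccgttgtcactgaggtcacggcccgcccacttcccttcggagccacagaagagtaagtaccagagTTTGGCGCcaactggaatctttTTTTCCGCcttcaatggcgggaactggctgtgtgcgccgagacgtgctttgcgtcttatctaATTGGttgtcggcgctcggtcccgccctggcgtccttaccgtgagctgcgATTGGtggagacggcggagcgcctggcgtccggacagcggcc

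Slbp held 3 CCAAT motifs in this window and Casp8ap2 held 2, together with 2 matches to TTTNNCGC. Of the 9 members in the table, 5 held CCAAT and 2 held TTTNNCGC in at least 1 of their 11 windows, 7 of which reach past the 5′ end of the annotated gene. Among all 32851 windows of the same length, 33.8% held CCAAT and 4.28% held TTTNNCGC. These are shares of windows, whereas the member counts are of genes with a match in any window, so the 2 are not alike. Zfp473 held CCAAT only in a window whose 250 bases all lay inside the annotated gene. A match describes the letters only, and binding was not measured.

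The labelled cell type and target were checked first. The mean log2 levels of the 10 fibroblast markers ran from 6.58 (Col5a1) to 12.83 (Vim), those of the 5 epithelial markers from 3.76 (Epcam) to 6.64 (Krt8) and those of the 5 macrophage markers from 3.28 (Adgre1) to 6.49 (Cd68), though levels of different probe sets cannot be ranked against each other. Per array, the mean of the fibroblast list lay between 9.13 and 9.76, that of the epithelial list between 4.56 and 4.86 and that of the macrophage list between 4.72 and 5.16. Single markers rose against sirEGFP: Csf1r of the macrophage list by 0.83 with oligo 1 (limma adjusted p = 0.00874), and with oligo 2 Pdgfrb of the fibroblast list by 1.75 (0.0126) and Fabp4 of an adipocyte list by 1.65 (0.000143). Their lists did not all follow. Of the 5 macrophage markers, 3 lay below 0 with oligo 1 (median -0.01). With oligo 2, 3 of the 4 adipocyte markers lay below 0 (median -0.08), and 8 of the 10 fibroblast markers lay above 0 (median 0.20). With oligo 2 against Mock, 5 fibroblast markers lay above 0 and 5 below (median -0.00), and 0 were called. All 10 lay below 0 with sirEGFP against Mock. The Csf1r call was lost without sirEGFP array 2 (0.0606) or the 3 outer arrays described below (0.125) and the Pdgfrb call without sirEGFP array 2 or 3 (0.0734 and 0.0699) or oligo 2 array 1 (0.0712), and their part in the results below was not tested. Every one of the 6 knockdown arrays held less Ubtf than any of the 6 controls, with log2 changes against sirEGFP of -0.55 ± 0.17 (SE) for oligo 1 and -0.61 ± 0.17 for oligo 2 (limma adjusted p = 0.107 and 0.0771) and against Mock of -0.74 and -0.79 (adjusted p = 0.0252 and 0.0146). Array medians lay between 5.38 and 5.54. One axis held 41.5% of the variance within groups, and oligo 1 arrays 2 and 1 and sirEGFP array 1 stood at its ends. Results that rest on these 3 outer arrays are also given without them, a setting chosen after seeing the data.

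Across the members, oligo 1 was followed by lower Slbp, Eri1 and Cpsf2 and oligo 2 by higher Cpsf3, each against sirEGFP. Of these results, only that of Slbp was also called against Mock. The Cpsf3 change was of like size with oligo 1 (0.54) and oligo 2 (0.58), and sirEGFP itself stood 0.39 below Mock for this gene. The siRNAs differed from each other at Slbp, Eri1 and Casp8ap2, all lower with oligo 1. No member separated the 6 knockdown arrays from the 6 control arrays, as Ubtf did and as 423 of all genes (2.12%) did in either direction. A gene was called where limma's p, adjusted by Benjamini-Hochberg over the 19938 genes, was under 0.05, and changes are differences of mean log2 values. In these bulk samples, fewer cells with a transcript and less of it per cell cannot be told apart.

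**Figure D1:**
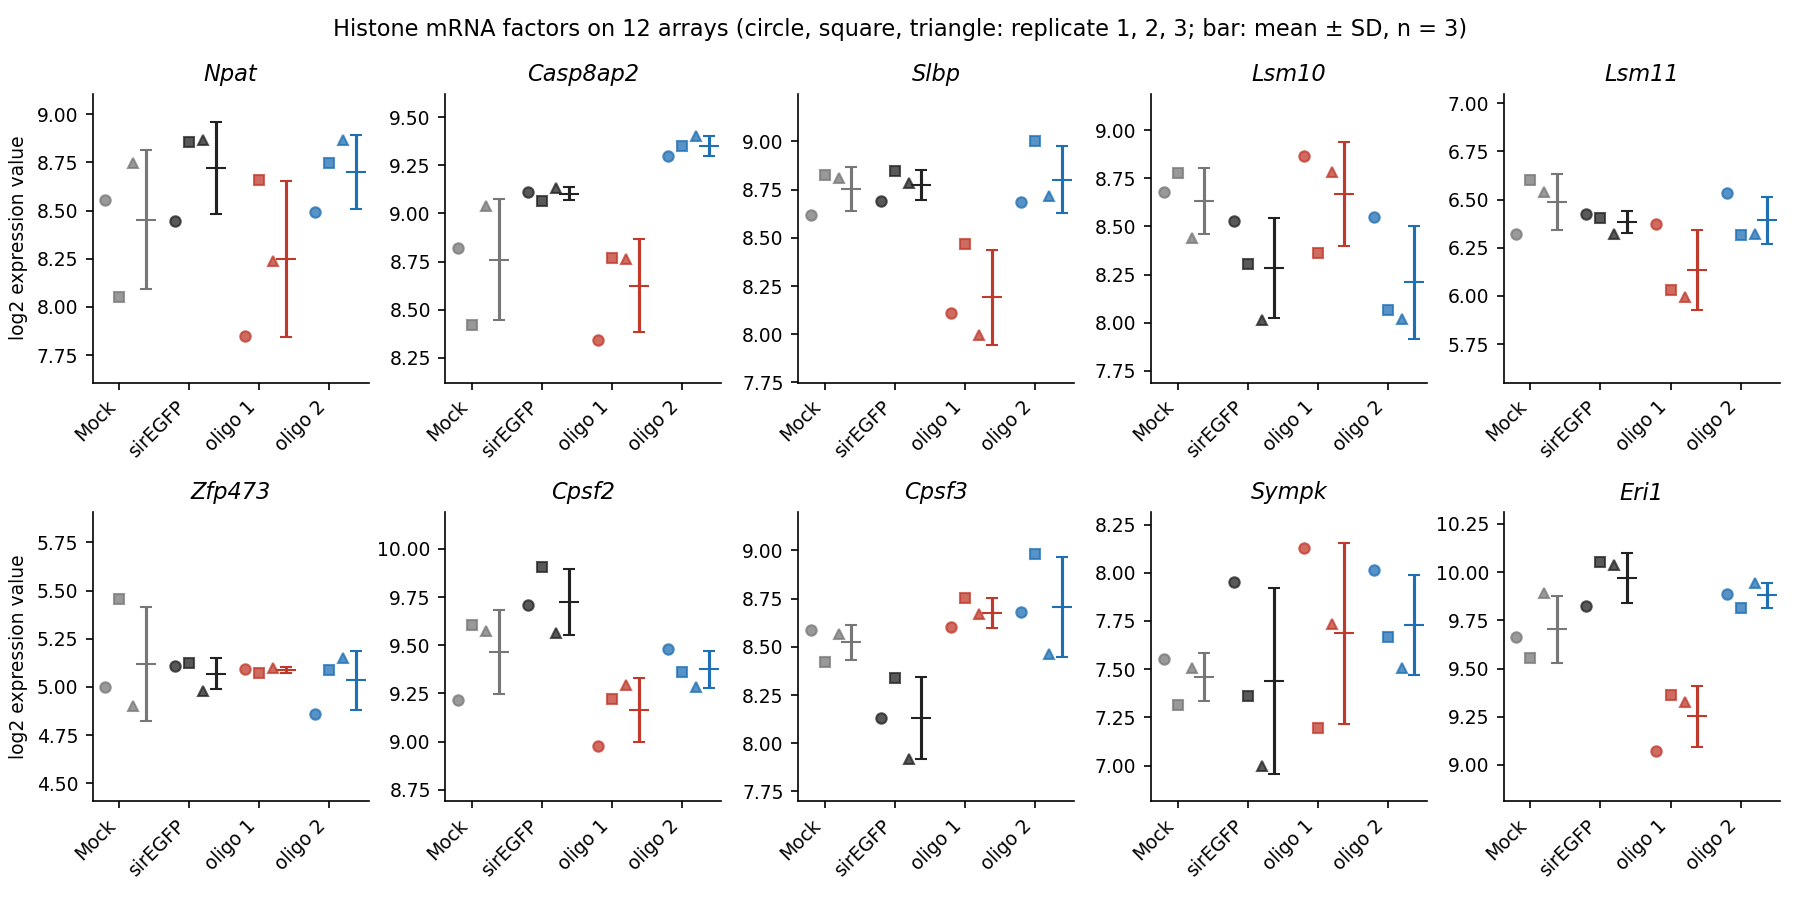
Log2 expression value of each of the 10 genes on the 12 arrays (vertical axis, the same span of 1.5 in every panel), by group, with symbols for replicates 1, 2 and 3 and bars for the mean ± SD of 3 arrays. All oligo 1 arrays lie below the other 9 arrays for Slbp and Eri1, and the Cpsf3 arrays with sirEGFP lie below those of all other groups.

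Of the histone locus body genes, Casp8ap2 differed between the UBF siRNAs and Npat passed the test in no comparison. On the log2 scale Npat, the coactivator of histone genes, stood at 8.56, 8.05 and 8.75 in Mock cells, at 8.45, 8.85 and 8.87 in those given sirEGFP, at 7.85, 8.66 and 8.24 after oligo 1 and at 8.49, 8.75 and 8.86 after oligo 2. The groups overlapped throughout, with an SD of 0.40 among the oligo 1 arrays. Its change against sirEGFP was -0.47 with a 95% interval of -0.92 to -0.03 for oligo 1 (limma adjusted p = 0.337) and -0.02 with an interval of -0.47 to 0.43 for oligo 2 (adjusted p = 0.983).

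Casp8ap2 encodes FLASH, which holds the histone locus body together and also recruits the cleavage complex. It stood at 8.82, 8.42 and 9.04 in Mock cells, at 9.11, 9.06 and 9.13 in those given sirEGFP, at 8.34, 8.77 and 8.76 after oligo 1 and at 9.30, 9.35 and 9.40 after oligo 2. The oligo 2 arrays were the 3 highest of the 12, and the oligo 1 arrays lay below all sirEGFP arrays. Oligo 1 array 1 was the lowest of the 12, below all Mock arrays, while oligo 1 arrays 2 and 3 lay among the Mock arrays. Against sirEGFP the change was -0.48 ± 0.15 (SE) with oligo 1 and 0.25 ± 0.15 with oligo 2, and neither passed (limma adjusted p = 0.145 and 0.573). Against Mock, Casp8ap2 rose by 0.59 ± 0.15 with oligo 2 (adjusted p = 0.0439), in a comparison where 4.25% of all genes were called, 2.93% higher and 1.32% lower. With sirEGFP alone it already stood 0.34 above Mock (unadjusted p = 0.0429, adjusted p = 0.781).
The oligo 2 call against Mock held in 4 of 12 fits that left out 1 array. It was lost without Mock array 1 or 2 (adjusted p = 0.117 and 0.195), sirEGFP array 2 or 3 (0.0625 and 0.0573), oligo 1 array 3 (0.0591) or any of the oligo 2 arrays (0.0956, 0.121 and 0.154), within a range of 0.0130 to 0.195 over all 21 alternatives. It was also lost after centring each array on its median (0.0788) or quantile normalization (0.0819).

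Slbp, the stem-loop binding protein, was the member with 2 informative probe sets, and both were lowest with oligo 1. The first stood at 8.62, 8.83 and 8.81 in Mock cells, at 8.69, 8.85 and 8.79 in those given sirEGFP, at 8.11, 8.47 and 7.996 after oligo 1 and at 8.69, 9.002 and 8.72 after oligo 2. All 3 oligo 1 arrays lay below the other 9, a pattern found in 2.02% of genes. Slbp fell by 0.58 ± 0.14 (SE) against sirEGFP, so its level dropped by 33.2% (limma adjusted p = 0.0384), and by 0.56 ± 0.14 against Mock (adjusted p = 0.0430). With oligo 2 its change was 0.03 against sirEGFP (95% interval -0.27 to 0.32) and 0.05 against Mock (interval -0.25 to 0.35).
The second probe set lay at 8.58, 8.40 and 8.70 in Mock cells, at 8.57, 8.57 and 8.75 in those given sirEGFP, at 7.98, 8.24 and 8.05 after oligo 1 and at 8.53, 8.78 and 8.67 after oligo 2. Again every oligo 1 array lay below the other 9. In a fit of every named probe set on its own, it fell by 0.54 ± 0.12 with oligo 1 against sirEGFP (adjusted p = 0.0344), while its change against Mock was -0.47 ± 0.12 (adjusted p = 0.0605).

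The Slbp decrease kept its direction in all 22 alternatives. Over them the change with oligo 1 against sirEGFP lay between -0.82 and -0.48, and the adjusted p between 9.45e-05 and 0.184. The call held in 4 of 12 fits without 1 array. It was lost without sirEGFP array 2 or 3 (adjusted p = 0.167 and 0.130), oligo 1 array 1 or 3 (0.126 and 0.184) or oligo 2 array 3 (0.0563), and narrowly without Mock array 1, 2 or 3 (0.0505, 0.0508 and 0.0540). With the 3 outer arrays left out it was -0.82 (0.0489). The call against Mock held in 3 of 12 such fits, those without sirEGFP array 1, oligo 1 array 2 or oligo 2 array 2. It was lost without Mock arrays 1, 2 and 3 in turn (0.0724, 0.152 and 0.133), sirEGFP array 2 or 3 (0.0613 and 0.0586), oligo 1 array 1 or 3 (0.114 and 0.207) and oligo 2 array 1 or 3 (0.0541 and 0.0620), within 0.000268 to 0.207 over 21 alternatives, and with the 3 outer arrays left out it was -0.76 (0.0695).

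Transcripts of the U7 snRNP proteins and of ZFP100 passed the test in no comparison. Lsm10, one of the ring proteins found in U7 but not in spliceosomal particles, stood at 8.68, 8.78 and 8.44 in Mock cells, at 8.53, 8.30 and 8.01 in those given sirEGFP, at 8.87, 8.36 and 8.78 after oligo 1 and at 8.55, 8.06 and 8.02 after oligo 2. Its highest array was oligo 1 array 1 and its lowest sirEGFP array 3, and the groups overlapped. The change against sirEGFP was 0.39 with a 95% interval of 0.00 to 0.77 for oligo 1 and -0.07 with an interval of -0.46 to 0.31 for oligo 2 (limma adjusted p = 0.367 and 0.930).
Lsm11, the second such protein and the one that binds FLASH, stood at 6.32, 6.60 and 6.54 in Mock cells, at 6.43, 6.40 and 6.32 in those given sirEGFP, at 6.37, 6.03 and 5.997 after oligo 1 and at 6.53, 6.32 and 6.32 after oligo 2. The 2 lowest arrays were both from oligo 1, whose other array lay among the controls. Its change against sirEGFP was -0.25 for oligo 1 (interval -0.53 to 0.03) and 0.01 for oligo 2 (interval -0.27 to 0.28). Zfp473 ranged from 4.86 to 5.46 over all 12 arrays and had a mean of 5.09 with oligo 1, 5.03 with oligo 2 and 5.07 with sirEGFP. Its intervals against sirEGFP, -0.28 to 0.32 and -0.34 to 0.26, span decreases and increases alike.

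Of the cleavage complex genes, Cpsf2 fell with oligo 1 and Cpsf3 rose with oligo 2 against sirEGFP, and Sympk passed the test in no comparison. Cpsf2, the catalytically inactive partner of the nuclease, stood at 9.21, 9.61 and 9.57 in Mock cells, at 9.71, 9.90 and 9.56 in those given sirEGFP, at 8.98, 9.22 and 9.29 after oligo 1 and at 9.48, 9.36 and 9.29 after oligo 2. Every array of both UBF siRNAs lay below every sirEGFP array, while the Mock arrays spread over both. Cpsf2 fell by 0.56 ± 0.14 (SE) with oligo 1 against sirEGFP (limma adjusted p = 0.0470), and its change with oligo 2 was -0.35 ± 0.14 (adjusted p = 0.276). Against Mock the changes were -0.30 and -0.09 (adjusted p = 0.374 and 0.873), and the sirEGFP mean stood 0.26 above Mock.
The oligo 1 call for Cpsf2 held in 2 of 12 fits without 1 array, those without Mock array 1 or oligo 1 array 2. It was lost without Mock array 2 or 3 (adjusted p = 0.0553 and 0.0604), sirEGFP arrays 1, 2 and 3 in turn (0.0750, 0.243 and 0.0711), oligo 1 array 1 or 3 (0.185 and 0.0884) and oligo 2 arrays 1, 2 and 3 in turn (0.0602, 0.0660 and 0.0673), within 0.00490 to 0.376 over 22 alternatives. With the 3 outer arrays left out it was -0.44 (0.376).

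Cpsf3, the nuclease itself, stood at 8.59, 8.42 and 8.56 in Mock cells, at 8.13, 8.34 and 7.92 in those given sirEGFP, at 8.60, 8.75 and 8.67 after oligo 1 and at 8.68, 8.98 and 8.46 after oligo 2. The 3 sirEGFP arrays were the lowest of the 12, and the oligo 2 and Mock arrays overlapped. Against sirEGFP, Cpsf3 rose by 0.58 ± 0.14 (SE) with oligo 2, a 1.49-fold difference (limma adjusted p = 0.0496), and by 0.56 ± 0.12 in the mean of both siRNAs (adjusted p = 0.0334), where 1.93% of all genes were called, 1.21% higher and 0.722% lower. With oligo 1 the change was 0.54 ± 0.14 (adjusted p = 0.0628). Against Mock, Cpsf3 stood 0.15 higher with oligo 1 and 0.19 higher with oligo 2 (adjusted p = 0.766 and 0.659). With sirEGFP it stood 0.39 below Mock (unadjusted p = 0.0155, adjusted p = 0.734), and its distance from the UBF siRNAs was smaller against reagent alone.
The oligo 2 call for Cpsf3 held in 3 of 12 fits without 1 array. It was lost without Mock arrays 1, 2 and 3 in turn (adjusted p = 0.0727, 0.0638 and 0.0680), sirEGFP arrays 1, 2 and 3 in turn (0.0834, 0.0584 and 0.229), oligo 1 array 3 (0.0783) and oligo 2 array 1 or 2 (0.137 and 0.194), within 0.0237 to 0.229 over 22 alternatives. The call for the mean of both held in 5 of 12. It was lost without Mock array 1 (0.0504), sirEGFP arrays 1, 2 and 3 in turn (0.0613, 0.0519 and 0.220), oligo 1 array 3 (0.0718) and oligo 2 array 1 or 2 (0.0631 and 0.0565), within 0.0132 to 0.220. In the fit that left out the 3 outer arrays, both changes were close to those above, 0.58 (0.0642) and 0.56 (0.0846). The oligo 1 change, in turn, passed without oligo 2 array 2 (0.0456), within 0.00615 to 0.302.

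Sympk, which scaffolds the nuclease and its partner, varied widely among arrays of a group. It stood at 7.55, 7.32 and 7.50 in Mock cells, at 7.95, 7.36 and 6.9999 in those given sirEGFP, at 8.13, 7.19 and 7.73 after oligo 1 and at 8.01, 7.67 and 7.51 after oligo 2. The SD was 0.48 among the sirEGFP arrays and 0.47 among the oligo 1 arrays, and all groups overlapped. The change against sirEGFP was 0.25 for oligo 1 (95% interval -0.26 to 0.76) and 0.29 for oligo 2 (interval -0.22 to 0.80). The other 2 probe sets annotated to Sympk held identical values on every array, ranged from 4.93 to 5.61, and list no RefSeq transcript.

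Eri1, the exonuclease of histone mRNA decay, had the largest decrease of the members with oligo 1 against sirEGFP. It stood at 9.66, 9.55 and 9.89 in Mock cells, at 9.82, 10.05 and 10.04 in those given sirEGFP, at 9.07, 9.36 and 9.32 after oligo 1 and at 9.88, 9.81 and 9.94 after oligo 2. As for Slbp, all 3 oligo 1 arrays lay below the other 9. Eri1 fell by 0.72 ± 0.13 (SE) against sirEGFP, so its level dropped by 39.2% (limma adjusted p = 0.00754), and its change with oligo 2 was -0.09 (95% interval -0.36 to 0.18). Against Mock the oligo 1 change was -0.45 ± 0.13 (adjusted p = 0.0805), with sirEGFP standing 0.27 above Mock.
The oligo 1 call against sirEGFP held in 19 of 22 alternatives, between 0.000101 and 0.0683, and was lost without sirEGFP array 2 (adjusted p = 0.0513). In the absence of the 3 outer arrays the change was -0.72, the same size as with them (0.0683).

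**Figure D2:**
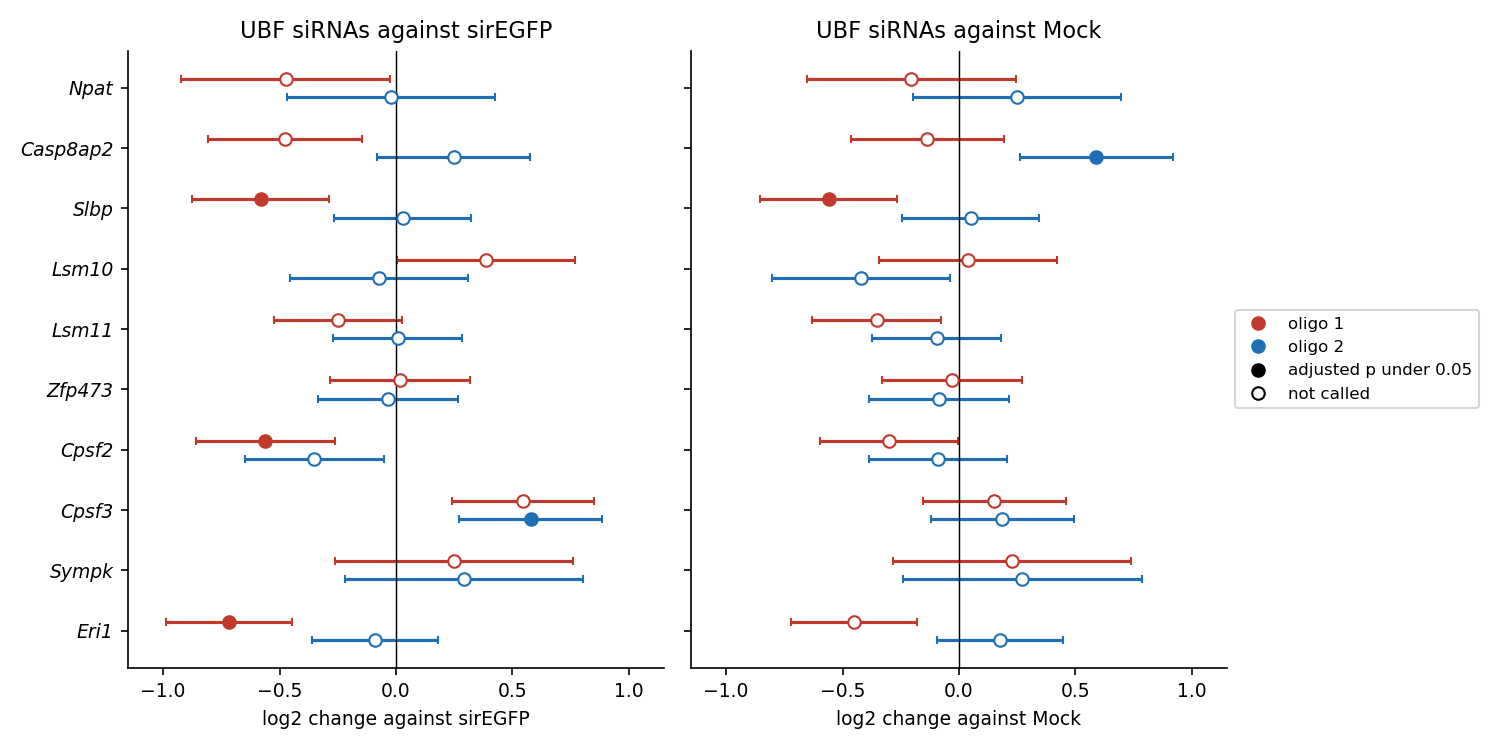
Log2 change of the 10 genes (horizontal axis) with oligo 1 and oligo 2 against sirEGFP (left) and against Mock (right), with limma's 95% intervals, where filled points passed an adjusted p of 0.05. The Cpsf3 changes of 0.54 and 0.58 against sirEGFP stand at 0.15 and 0.19 against Mock, while the Slbp change with oligo 1 is -0.58 against one control and -0.56 against the other.

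Counted over the 10 genes, 3 fell and 0 rose with oligo 1 against sirEGFP, where 2.47% of all genes were called, 1.43% lower and 1.04% higher. The arrays of oligo 1 and sirEGFP did not overlap for 5 members, against 15.5% of all genes. The median change was -0.36, against 0.02 over all genes, and 4 of the 10 lay above 0 and 6 below. With oligo 2, 1 member rose and 0 fell, where 2.26% of all genes were called, 1.52% higher and 0.742% lower. The median was -0.01, as over all genes, and the arrays did not overlap for 3 members, against 18.5% of genes. Against Mock, 1 member fell with oligo 1, where 2.75% of genes were called, 1.4% lower and 1.35% higher, and 1 rose with oligo 2. Both siRNAs were set against the same sirEGFP or Mock arrays, so their changes are not independent of each other.

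The difference between the UBF siRNAs was tested directly, with neither control as reference. The control arrays still entered the shared estimate of spread, and so the p-values. Slbp stood 0.61 ± 0.14 (SE) lower with oligo 1 than with oligo 2 (limma adjusted p = 0.0221), Eri1 0.63 ± 0.13 lower (adjusted p = 0.0117) and Casp8ap2 0.72 ± 0.15 lower (adjusted p = 0.0155). These were the 3 of 10 members called, in a comparison where 3.67% of all genes were called, 2.3% lower and 1.37% higher with oligo 1. Their oligo 1 and oligo 2 arrays did not overlap, which held for 18.3% of all genes. The second Slbp probe set differed by -0.57 ± 0.12 (adjusted p = 0.0187). Ubtf itself differed by 0.05 ± 0.17 between the siRNAs (interval -0.30 to 0.40).
The remaining 7 members did not pass. Npat differed by -0.45 (95% interval -0.90 to -0.00), Lsm11 by -0.26 (interval -0.53 to 0.02), Cpsf2 by -0.21 (interval -0.51 to 0.09), and Lsm10 by 0.46 in the other direction (interval 0.08 to 0.84). The Cpsf3 and Zfp473 differences were -0.03 (interval -0.34 to 0.27) and 0.05 (interval -0.25 to 0.35), and the Sympk difference was -0.04 with a wider interval of -0.56 to 0.47.

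**Figure D3:**
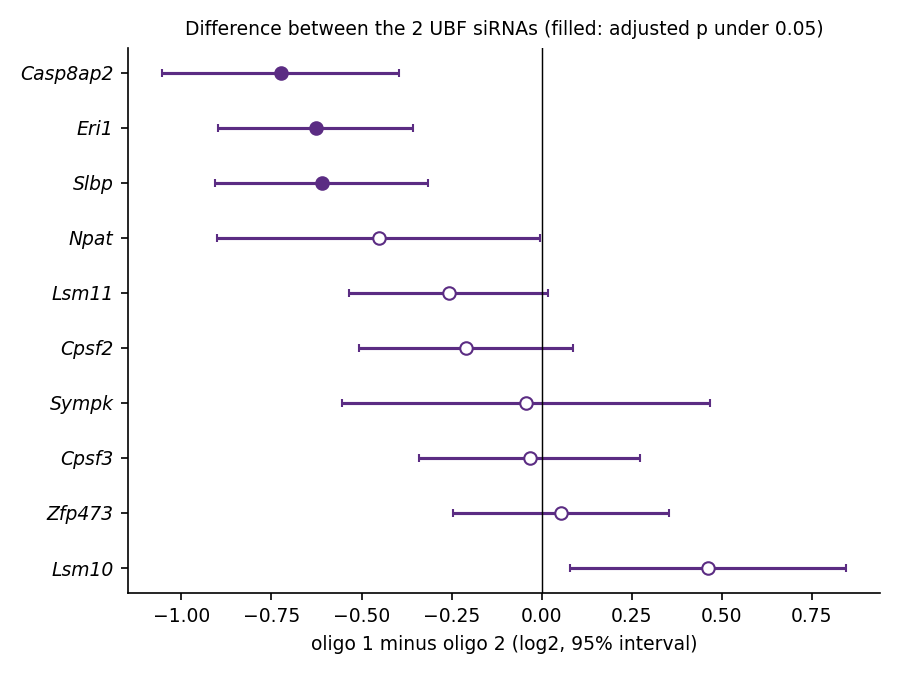
Difference in log2 expression between oligo 1 and oligo 2 (horizontal axis, oligo 1 minus oligo 2) for the 10 genes, with limma's 95% intervals and filled points at an adjusted p under 0.05. Casp8ap2, Eri1 and Slbp lie at -0.72, -0.63 and -0.61, and Lsm10 lies to the right of 0 at 0.46 without passing.

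Single arrays also decided some of these calls. The Slbp difference was called in 8 of 12 fits without 1 array and lost without oligo 1 array 1 or 3 (adjusted p = 0.0668 and 0.120) or oligo 2 array 2 or 3 (0.109 and 0.0578), within 9.36e-05 to 0.120 over 21 alternatives, while with the 3 outer arrays left out it was -0.81 (0.0466). The Eri1 difference was called in 11 of 12 and lost without oligo 2 array 3 (0.0591), within 0.000367 to 0.163. The Casp8ap2 difference was called in 9 of 12 and lost without oligo 1 array 1 (0.0575) or oligo 2 array 2 or 3 (0.0580 and 0.0706), within 0.000963 to 0.253. With the 3 outer arrays left out, the Eri1 difference was -0.56 (0.163) and the Casp8ap2 difference -0.59 (0.253). The direction of each was the same in every one of these fits.

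**Figure D4:**
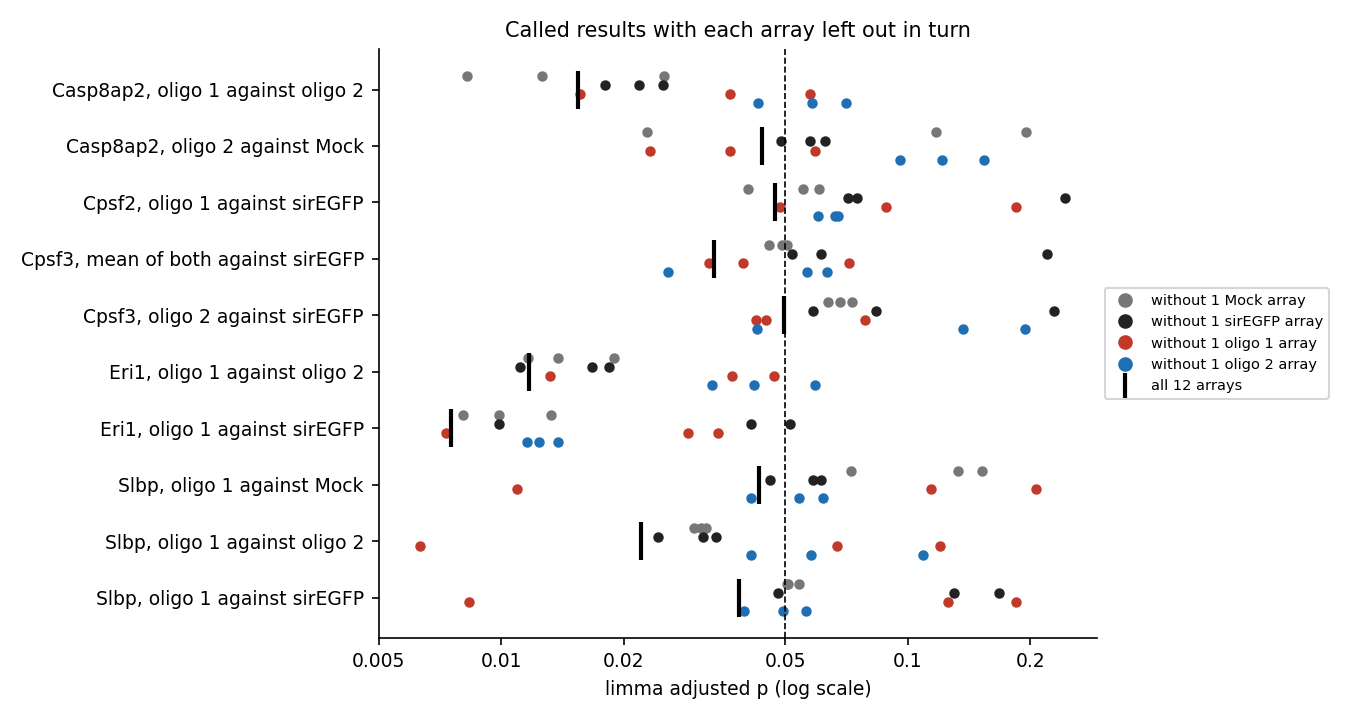
Adjusted p of each called result on a log axis, with each of the 12 arrays left out in turn (points, coloured by the group of the array left out) and with all 12 arrays (black bars); the dashed line marks 0.05. Both Eri1 results stay left of the line in 11 of 12 fits, and the Cpsf2 result in 2 of 12.

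Between the controls, sirEGFP against Mock, 0 members and 0 of all 19938 genes (0.0%) were called by limma, while 1247 genes (6.25%) had an unadjusted p under 0.05. Among the members these were Casp8ap2, which stood higher with sirEGFP, and Cpsf3, which stood lower. Both are genes whose call depended on which control was used.

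The wider pathway was read through lists of partners of the members. None of the 16 other measured subunits of the U7 ring, the cleavage complex and its cap-binding link was called in any comparison, and their median change against sirEGFP was -0.18 with oligo 1 and -0.00 with oligo 2. At an unadjusted p under 0.05, 4 of them were lower with oligo 1 and 1 with oligo 2, where 13.4% and 12.9% of all genes, in either direction, had such a p. Snrpe, a ring protein shared with spliceosomal particles, had the smallest p of these in the mean of both siRNAs, with changes of -0.55 and -0.45 (limma adjusted p = 0.168 and 0.300). Among 11 genes of poly(A)-tail formation and of Integrator, whose Ints9 and Ints11 are paralogues of Cpsf2 and Cpsf3, 0 were called against sirEGFP, with medians of -0.12 and 0.08 and 1 lower at an unadjusted p under 0.05, with oligo 1. Rbbp6, a cleavage cofactor, rose by 0.66 with oligo 2 against Mock (adjusted p = 0.0376). That call was lost without Mock array 1, 2 or 3 (0.0853, 0.171 and 0.0643), sirEGFP array 2 (0.0519), oligo 1 array 3 (0.0552) or oligo 2 array 2 or 3 (0.156 and 0.155).

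Of 11 genes for histone gene transcription and the kinases that act on NPAT, 1 fell with oligo 1 against sirEGFP. This was Ccna2, the S-phase partner of CDK2, which fell by 0.58 ± 0.11 (SE, limma adjusted p = 0.0131) and by 0.62 against Mock (adjusted p = 0.00720). The call against sirEGFP was lost without sirEGFP array 2 or 3 (0.0785 and 0.0626) or oligo 1 array 3 (0.0690). The changes were, with the 3 outer arrays left out, -0.73 against sirEGFP (0.0539) and -0.71 against Mock (0.0637). Ccne1 and Ccne2, the E cyclins, had changes of 0.09 and -0.56 (adjusted p = 0.917 and 0.156). With oligo 2, 0 of the 11 were called against sirEGFP (2 higher at an unadjusted p under 0.05), and the medians were -0.22 for oligo 1 and 0.04 for oligo 2. Between the siRNAs, Atm and Ccna2 were lower with oligo 1, by 0.78 and 0.55 (limma adjusted p = 0.0359 and 0.0132).

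Of 21 genes for the translation, uridylation and decay of histone mRNA, in which Eri1 acts, 3 fell and 0 rose with oligo 1 against sirEGFP. All 3 were subunits of the LSM ring that binds oligouridine tails and hands the mRNA to decapping, and all 3 are shared with the nuclear ring on U6 RNA. Lsm3 fell by 0.90 ± 0.16 (SE, limma adjusted p = 0.00830), Lsm2 by 0.69 ± 0.11 (adjusted p = 0.00316) and Lsm6 by 0.53 ± 0.12 (adjusted p = 0.0294). Lsm2 and Lsm3 were called in all 12 fits without 1 array, whereas Lsm6 was lost without sirEGFP arrays 1, 2 and 3 in turn (0.0780, 0.111 and 0.0537) and oligo 1 array 1 or 3 (0.120 and 0.0690). In the fit that left out the 3 outer arrays, Lsm3 alone of them was called (-0.92, 0.0209), with Lsm2 at -0.72 (0.0556) and Lsm6 at -0.38 (0.359). With oligo 2 against sirEGFP, 0 of the 21 were called, while 3 were higher and 3 lower at an unadjusted p under 0.05. Against Mock, oligo 2 called 5 of the 21. Tut4, a uridylating enzyme, rose by 0.82 (0.00687) and was called in all 12 fits without 1 array, and Tut7 and Dcp2 rose by 0.43 (0.0347) and 0.60 (0.0498). Lsm7 fell by 0.71 (0.00861), a call lost without Mock array 1 or oligo 2 array 3 (0.0553 and 0.0505). Lsm2 fell by 0.43 (0.0346), a call held in 6 of 12 fits and lost without Mock array 1 or 2 (0.153 and 0.0956), oligo 1 array 3 (0.0517) or any of oligo 2 arrays 1, 2 and 3 (0.0786, 0.0655 and 0.159). The Tut7 call held in 5 of 12, up to 0.149 without Mock array 2. In the mean of both siRNAs against sirEGFP, Lsm2 fell by 0.48 (0.0158), lost without sirEGFP array 2 or 3 (0.0640 and 0.0942). Against sirEGFP, the medians of the list were -0.10 and 0.03, against 0.02 and -0.01 over all genes.

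Of 15 histone chaperones and import factors, which take up the newly made histones, Nasp and Ubn1 fell with oligo 1 against sirEGFP, by 0.63 and 0.62 (limma adjusted p = 0.0151 and 0.0285), and 0 rose. Nasp carries newly made H3 and H4 in the nucleus. Its call was lost without sirEGFP array 2 or oligo 1 array 1 (0.0678 and 0.0653), and that of Ubn1 without sirEGFP array 1 or 2 (0.0725 and 0.140) or any of oligo 1 arrays 1, 2 and 3 (0.0524, 0.0545 and 0.0831). In the absence of the 3 outer arrays neither was called (0.234 and 0.298). The list's median was -0.35 with oligo 1 and 0.05 with oligo 2, where 0 were called and 0 had an unadjusted p under 0.05.

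Genes of DNA replication and G1/S moved beside Slbp and Eri1 in the same samples. Of 32 measured, 10 fell and 0 rose with oligo 1 against sirEGFP, with a median of -0.54, and 0 were called with oligo 2, with a median of 0.05 and 2 higher and 2 lower at an unadjusted p under 0.05. Examples are Pola1, the catalytic subunit of DNA polymerase alpha, which fell by 0.97 ± 0.16 (SE, limma adjusted p = 0.00543), Gins1, a part of the replicative helicase, which fell by 0.92 ± 0.12 (adjusted p = 0.00116), and Dtl, a substrate receptor in S phase, which fell by 0.76 ± 0.12 (adjusted p = 0.00309). Between the siRNAs 15 of the 32 were lower with oligo 1, with a median of -0.61. The count of 10 ranged from 6 without sirEGFP array 2 to 12 without oligo 1 array 2, and the count of 15 from 9 without oligo 2 array 1 to 18 without sirEGFP array 1. With the 3 outer arrays left out both counts were 3, with medians of -0.39 and -0.61. 3 genes of this list, Asf1b, Chaf1a and Chaf1b, also stand in the chaperone list. The part of the replication genes in the Slbp, Eri1 and Casp8ap2 differences was not tested.

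**Figure D5:**
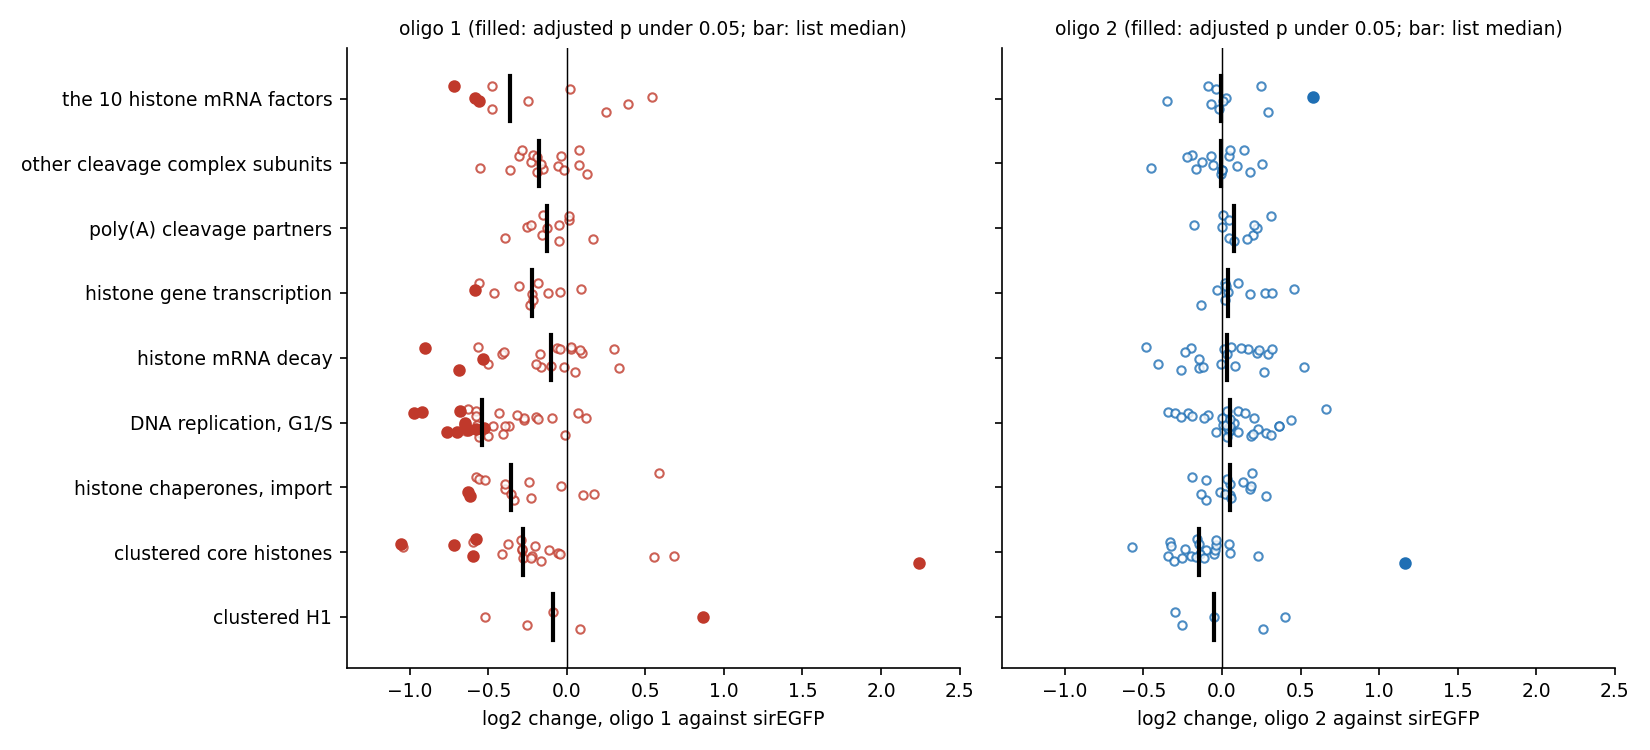
Log2 change of each gene (points) in the 10 histone mRNA factors and 8 further lists, with oligo 1 (left) and oligo 2 (right) against sirEGFP; filled points passed an adjusted p of 0.05 and black bars are list medians. With oligo 1 the median of the replication list lies at -0.54 and that of the 10 factors at -0.36, while with oligo 2 they lie at 0.05 and -0.01.

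Most clustered core histone genes, whose transcripts the 10 factors act on, had values below the controls, while H2bc4 rose. Of 22 clustered core histone genes, 4 fell and 1 rose with oligo 1 against sirEGFP, with a median of -0.28, and 1 rose with oligo 2, with a median of -0.14. The changes of 19 and 18 of the 22 lay below 0. Against Mock, 5 fell and 1 rose with oligo 1 (median -0.47, 19 below 0). With oligo 2 against Mock, 2 fell and 1 rose (median -0.34, 20 below 0). For sirEGFP itself against Mock, 18 of the 22 also lay below 0, with a median of -0.23 and 0 called. Of all genes, 1.43% were called lower and 1.04% higher with oligo 1 against sirEGFP, and 0.742% and 1.52% with oligo 2. Against Mock these shares were 1.4% and 1.35% with oligo 1 and 1.32% and 2.93% with oligo 2. H4c4 fell by 1.05 ± 0.18 (SE, limma adjusted p = 0.00645) and H2bc3 by 0.60 ± 0.13 (adjusted p = 0.0287) with oligo 1, while H2bc4 rose by 2.24 ± 0.23 (adjusted p = 0.000442) with oligo 1 and by 1.16 ± 0.23 (adjusted p = 0.0138) with oligo 2. H4c6 and H4c14 also fell with oligo 1 against sirEGFP, by 0.72 and 0.58 (adjusted p = 0.0327 and 0.0304). Against Mock, H2bc3 fell by 0.96 with oligo 1 (adjusted p = 0.00176), called in all 12 fits without 1 array, and by 0.70 with oligo 2 (adjusted p = 0.00903), lost without Mock array 1 (0.0537). H2bc14 fell by 1.09 (adjusted p = 0.00316), called in all 12, and by 0.83 (adjusted p = 0.0136), lost without Mock array 1 or 2 (0.0739 and 0.0713) or oligo 2 array 2 or 3 (0.0555 and 0.0706). The H2bc3 call against sirEGFP was lost without sirEGFP arrays 1, 2 and 3 in turn (0.0609, 0.137 and 0.0525) and oligo 1 array 2 or 3 (0.0544 and 0.132), and the oligo 2 call of H2bc4 without sirEGFP array 2 or 3 (0.0875 and 0.0746) or oligo 2 array 1 or 3 (0.0678 and 0.0743). With the 3 outer arrays left out the H4c4 change was -0.86 (0.135). The count of 4 that fell against sirEGFP ranged from 1 without sirEGFP array 1 to 5 without Mock array 2, and was 0 in that fit. These genes are near-identical copies, so a probe set may read several of them, and the arrays do not tell a stem-loop end from a poly(A) end. Of 5 clustered H1 genes, H1f2 rose by 0.86 with oligo 1 against sirEGFP (adjusted p = 0.00874) and by 0.63 in the mean of both siRNAs (0.0281). With oligo 2 against sirEGFP 0 were called, and the list medians were -0.08 with oligo 1 and -0.05 with oligo 2. Against Mock, H1f2 rose by 0.86 (0.00734) and H1f5 fell by 0.89 (0.00537) with oligo 1. Fits without single arrays are not given for the H1 genes.

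The genes whose pattern over the 12 arrays was most like that of Slbp by Pearson's r were Smc2, a condensin subunit (0.952), Cebpg (0.950) and Ercc6l (0.944). For Npat they were Pcm1 (0.960), Lcorl (0.956) and Naa16 (0.955), and for Casp8ap2 they were Dcp2, the decapping enzyme (0.983), Smc3, a cohesin subunit (0.967), and Tbl1xr1 (0.965). Dcp2 belongs to the decay list, and like Casp8ap2 it rose with oligo 2 against Mock, by 0.60 (limma adjusted p = 0.0498), and was lower with oligo 1 than with oligo 2, by 0.70 (adjusted p = 0.0240). Dcp2 was picked here for its likeness to Casp8ap2 on these same arrays, so shared differences follow from that choice. Its oligo 2 call held in 3 of 12 fits without 1 array, up to an adjusted p of 0.221 without Mock array 2, and its difference between the siRNAs in 8 of 12, up to 0.0927 without oligo 2 array 3. That difference was -0.50 (0.368) with the 3 outer arrays left out. The points share arrays, groups and the axis within groups, so these values describe the 12 arrays only.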

How the data were processed

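The authors deposited 1 log2 value for each probe set on each of 12 arrays, a scale judged from its range. How the authors corrected, normalized and summarised them is not given in the sources used here, beyond limma, which the submitters' processing notes name. The values were used as deposited, with no dim-signal filter, and signal over background cannot be judged from them. Per the labels' protocols, 2.5 ug of labelled cDNA was made from 100 ng of total RNA per array.

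Probe sets were named through GEO's platform annotation. Of 35512, 21789 carried 1 symbol, 1621 several and 12102 none, and 21698 matched RefSeq (GRCm38.p6) by Entrez identifier, the other 91 keeping their annotated symbol. For each gene the probe set with the highest mean over all arrays was kept, which left 19938 genes. A linear model with 1 coefficient per group was fitted to all 12 arrays (limma 3.58.1, R 4.3.3, with eBayes, two-sided) and adjusted by Benjamini-Hochberg over all 19938. On simulated data for oligo 1 against sirEGFP with these 19938 genes, 22 of 100 changes of 0.5 and 84 of 100 changes of 1 (log2) were recovered, with 6 false calls in all. The simulated noise was independent between genes and arrays and held no shared axis within groups. These rates therefore need not hold for the deposited arrays.

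The members, the pathway lists and the alternatives were chosen with earlier results of these data known. Every member and Ubtf was named. From each list, some of the genes called in a comparison, or among the 4 with the smallest p in the mean of both siRNAs against sirEGFP, were named. Not every called gene of a list is named. The genes most like Slbp, Npat and Casp8ap2 are the 3 with the highest Pearson's r over 12 arrays, predicted genes passed over. Alternatives were centring, quantile normalization, leaving out the dimmest 25% of genes, array weights, a replicate block, an intensity trend, only the groups compared, every probe set on its own, and each array left out. A further 2 were added after seeing the data: leaving out 3 arrays, and the mean of both controls as reference.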

Additional observations from a re-analysis of the deposited data

Results flagged for a closer look

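The changes of 3 members against sirEGFP differed between the UBF siRNAs by limma's test of the difference itself. Oligo 1 minus oligo 2 was -0.61 on the log2 scale for Slbp (adjusted p = 0.0221, range over 21 alternatives 9.36e-05 to 0.120), -0.63 for Eri1 (adjusted p = 0.0117, range 0.000367 to 0.163) and -0.72 for Casp8ap2 (adjusted p = 0.0155, range 0.000963 to 0.253). In each case all 3 oligo 1 arrays lay below all 3 oligo 2 arrays. Of all genes, 3.67% were called in this comparison, and for 18.3% the arrays did not overlap in either direction.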

How the results depend on the processing

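Counts of members called (with all 12 arrays: oligo 1 against sirEGFP 3, oligo 2 against sirEGFP 1, the mean of both 1, oligo 1 against Mock 1, oligo 2 against Mock 1, sirEGFP against Mock 0, oligo 1 against oligo 2 3) changed as follows. Array weights, which gave oligo 1 array 3 a weight of 8.92 and the other oligo 1 arrays 0.441 and 0.416, gave 8 for oligo 1 and 0 for oligo 2 against sirEGFP, 4 for the mean, 3 for oligo 1 against Mock and 6 between the siRNAs. Over all 19938 genes, array weights called 3814 for oligo 1 against sirEGFP, 1949 for the mean and 3164 between the siRNAs. Without weights these were 493, 385 and 732, so in these comparisons calls rose over all genes and not only among the members. Weights also called 2695 of all genes for oligo 1 against Mock, against 549 without them. With oligo 2 against sirEGFP the 2 counts moved apart. Weights called 1180 of all genes, against 451 without them, while the member count went from 1 to 0. Fitting only the groups compared, which leaves fewer arrays in the fit, gave 0 for oligo 1, oligo 2 and the mean against sirEGFP. It also gave 0 for oligo 1 against Mock. Over all genes that setting still called 359 for oligo 2 against sirEGFP, against 451 with all groups in the fit. It called 236 for the mean, against 385, and 276 for oligo 1 against Mock, against 549. For oligo 1 against sirEGFP its all-gene count was lower than any of these, against 493 with all groups. Quantile normalization gave 0 for oligo 2 against sirEGFP, 2 for oligo 1 and 0 for oligo 2 against Mock. Centring gave 0 for oligo 2 against sirEGFP and 0 against Mock, an intensity trend 0 for oligo 2 against sirEGFP and 0 for oligo 1 against Mock, and every probe set on its own 0 for oligo 2 against sirEGFP. For oligo 2 against sirEGFP, quantile normalization and these settings called 368 to 434 of all genes, against 451 in the fit used above. Against the mean of both controls, oligo 2 and the mean of both siRNAs gave 0, where 979 and 982 of all genes were called. Leaving out the 3 outer arrays gave 1 for oligo 1 and 0 for oligo 2 against sirEGFP, 0 for their mean, 0 for oligo 1 against Mock and 1 between the siRNAs. There 255 of all genes were called for oligo 1 and 1049 for oligo 2 against sirEGFP, and 211 between the siRNAs. Leaving out each array gave 0 to 3 for oligo 1 against sirEGFP and between the siRNAs, 0 to 1 for oligo 2 and the mean against sirEGFP and for each siRNA against Mock, and 0 for sirEGFP against Mock. Over all genes, these fits called 155 to 863 for oligo 1 against sirEGFP and 328 to 833 between the siRNAs. The causes were not tested.

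With the replicate number as a block the counts were 4 for oligo 1 against sirEGFP, 3 for the mean and 2 for oligo 1 against Mock. Over all genes the block called 878, 789 and 838 there, against 493, 385 and 549 without it. The block kept Cpsf3 for oligo 2 against sirEGFP, Casp8ap2 for oligo 2 against Mock and the same 3 genes between the siRNAs. Same-numbered arrays correlated above 0.1 for every number between sirEGFP and oligo 2 (0.548, 0.240 and 0.182) and between oligo 1 and oligo 2 (0.387, 0.294 and 0.115), and not in the other 4 pairs of groups. Even so, sirEGFP array 3 correlated more with an oligo 2 array of another number (0.285), and oligo 1 array 3 slightly more (0.121). Outside the blocked fit the numbers were not taken to pair samples in any pair of groups. Of 1500 values of single members, 86 lost and 19 gained a call and 1395 kept their side of the threshold. Only results called with all 12 arrays could lose a call, so 1500 is not the base for the 86. Against sirEGFP, the oligo 1 call held in 12 of 22 alternatives for Slbp, 19 of 22 for Eri1 and 9 of 22 for Cpsf2. The oligo 2 call for Cpsf3 held in 5 of 22. The sign differed in 64 of the 1500 values, 0 of which were called in either fit. Depth and signal over background cannot be read from these values, and 3 arrays a group limit the precision: an uncalled member is not shown to be unchanged.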
